A study of Bos taurus with 3 samples.

Results

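The cells described here are the low-cycling, non-macrophage cells of 2 cultures of bovine mesenchymal stromal cells, 1 from bone marrow and 1 from peripheral blood. A barcode counted as a cell at 4415 or more unique molecular identifiers (UMIs, each standing for 1 captured RNA molecule) in marrow and 7489 or more in blood. Cells in which the macrophage genes TYROBP, FCER1G and AIF1 reached 0.02% of the UMIs were removed, which were 984 of 9281 marrow cells and 159 of 3192 blood cells. Each remaining cell was scored by its mean log level of 8 cell cycle genes, TOP2A, MKI67, NUSAP1, UBE2C, CDK1, CCNB1, H3C3 and H2AC12, and the lowest 20% of each library were kept. The cells were thus chosen by measured values, those of these 8 genes and of the 3 macrophage genes, which are given below as a description only. That left 1659 of 8297 marrow cells and 606 of 3033 blood cells, 2265 cells in all of the 12473 called in both libraries and the 18561 called in the whole series. The score is continuous, so these cells are a range and not a type. In marrow the last cell kept had a score of 0.1446 and the first left out 0.1449, and in blood these were 0.0935 and 0.0937. Within 10% of the limit lay 83 kept and 60 excluded marrow cells, and 44 kept and 49 excluded blood cells.

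Both cultures came from 1 healthy Holstein-Frisian cow in its first lactation, of wild-type genotype (labelled WT) and with no treatment. They were grown in low-glucose DMEM with FBS (30%), L-glutamine (1X) and P/S (1X) until colonies of MSCs (mesenchymal stromal cells) could be seen, and were profiled with the 10X Genomics single cell 3' v3.1 protocol. There was 1 library per tissue and no replicate, so tissue, culture and library cannot be told apart, and every interval below covers counting error only. The third library, from adipose tissue of the same cow, is used as a further level for the same genes.

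Mesenchymal stromal cells are plastic-adherent, fibroblast-like cells that make collagen-rich matrix and can be driven towards bone, cartilage or fat in culture. In bone marrow, stromal cells include the precursors of osteoblasts, the bone-forming cells, and they secrete factors that support blood cell formation. BMP and Wnt ligands act on such cells through receptors at the surface, and secreted antagonists such as gremlin, follistatin, dickkopf and the secreted frizzled-related proteins bind the ligands or their receptors. Dividing cells carry much RNA of replication and mitosis genes, and cells with little of it allow cultures to be compared with a smaller contribution from these genes.

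Depth differed between the libraries. The median low-cycling cell held 8051 UMIs in marrow and 22634.5 in blood, so every cell was thinned at random to 4000 UMIs, which gave 6636000 UMIs over the marrow cells and 2424000 over the blood cells. At that depth the median cell had 1633 detected genes in marrow and 1612 in blood. Levels are given as CPM, the UMIs of a gene summed over the cells of a library and scaled to a common total. Mitochondrial genes took 24757 and 24601 CPM and ribosomal protein genes 246869 and 237099 CPM in marrow and blood. Of the called barcodes, 10 occurred in both libraries, 2 of them among the low-cycling cells.

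The label of stroma was checked with markers. The 16 stromal markers summed to 15734 CPM in marrow and 23808 CPM in blood, a median of 56 and 89 UMIs per cell, and 11 and 12 of them reached 50 CPM. COL1A1, a chain of type I collagen, was at 5458 CPM in marrow and 8131 CPM in blood. Of the mesenchymal surface proteins, ITGB1 was at 862 and 782 CPM, CD44 at 224 and 208 CPM and NT5E at 131 and 178 CPM, while THY1 had 3.01 and 1.65 CPM. CD34 had 0 UMIs in both libraries at this depth, and PTPRC, the pan-leukocyte gene CD45, had 1 UMI in marrow and 0 in blood. The 20 macrophage markers, a median of 0 UMIs per cell in either library, summed to 36.9 CPM in marrow and 106 CPM in blood. LAPTM5, a lysosomal membrane protein of blood cells, made up 2.56 and 72.2 CPM of these sums and was 28.2-fold higher in blood (17.1 to 49.5), while the monocyte receptor CD14 was at 2.86 and 3.71 CPM. Neutrophil markers summed to 42.0 and 9.90 CPM, of which S100A12 made up 29.1 CPM in marrow (193 UMIs) against 0 UMIs in blood. Endothelial markers summed to 1.81 and 11.96 CPM, lymphocyte markers to 1.66 and 1.24 CPM and erythroid markers to 0.753 and 0 CPM. The part of these small signals in the differences below was not tested.

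The label of low cycling held unequally. The 8 genes that chose the cells summed to 59.4 CPM in marrow and 31.4 CPM in blood, against 2663 and 2688 CPM in the highest-scoring 20% of each library, values that the choice itself fixed. The score was taken at full depth, where marrow cells held fewer UMIs, so a score of 0 meant less in marrow. It was exactly 0 in 53.1% of the marrow cells and 42.9% of the blood cells. After thinning, 76.6% of marrow and 88.1% of blood low-cycling cells had no UMI of these genes. Proliferation genes outside the 8 remained higher in marrow: the 32 listed genes summed to 4590 CPM in marrow and 2967 CPM in blood, and 30 of the 31 measured had a ratio above 1. MCM7, a subunit of the replicative helicase, was at 108 and 41.7 CPM. CDC20, an activator of mitotic exit, was at 59.98 and 11.6 CPM, CENPF, a kinetochore protein, at 90.7 and 30.1 CPM, and BIRC5 (survivin) at 171 and 70.1 CPM. The low-cycling marrow cells therefore carried more proliferation RNA than the blood cells, and the counts of genes apart are also given without the sub-clusters led by cell cycle genes.

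A gene was called apart where its CPM differed at least 2-fold and reached 50 CPM in the higher library. Of 3037 genes that reached 50 CPM in either library, 310 (10.2%) were apart, 141 (4.64%) higher in marrow and 169 (5.56%) higher in blood. The median difference was 2.58-fold among the former and 2.91-fold among the latter, with 40 and 54 genes at 4-fold or more and 16 and 22 at 10-fold or more. The 95% interval of the ratio, an exact conditional binomial interval on the UMI counts, reached below 2-fold for 49 of the marrow-high and 42 of the blood-high genes. Over 8363 measured genes the median log2 ratio of marrow over blood was 0.02. Among the other 80% of non-macrophage cells, 6638 in marrow and 2427 in blood, 216 of 3156 genes (6.84%) were apart, 101 (3.2%) higher in marrow and 115 (3.64%) in blood. These cells come from the same 2 libraries and are no independent check, so each comparison's values are given side by side. Without the sub-clusters led by cell cycle genes, an alternative chosen after seeing the data, 142 genes were higher in marrow and 165 in blood.

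**Figure D1:**
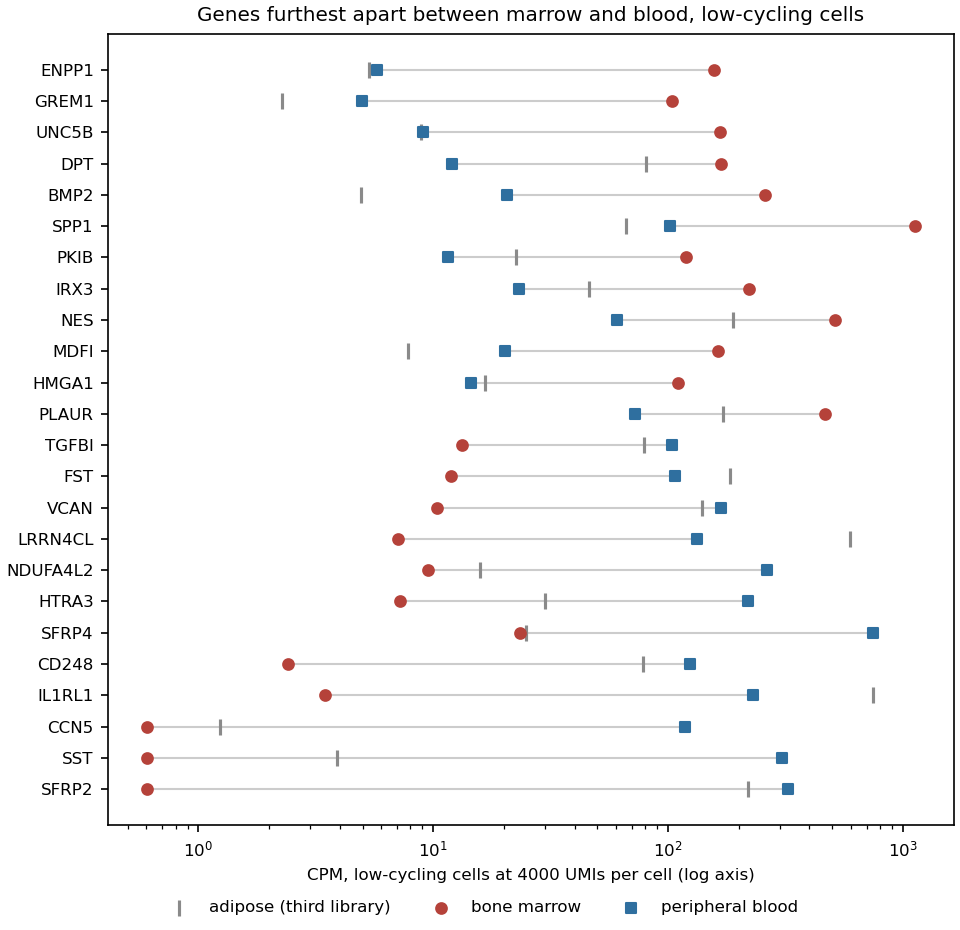
Levels of the 12 genes with the largest ratio in each direction (rows; at least 100 CPM in the higher library), in CPM on a log axis, for the low-cycling cells of bone marrow (red circles), peripheral blood (blue squares) and adipose tissue (grey ticks). The genes were chosen for their distance, so the gap itself is a description. The adipose level lay between the other libraries for 15 of the 24 genes, below both for 6 marrow-high genes and above both for 3 blood-high genes. No share over all genes is set beside these counts.

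The 12 largest marrow-high ratios included genes of bone matrix, BMP signalling and axon guidance. ENPP1, an ectoenzyme that makes the mineralisation inhibitor pyrophosphate, was at 156 CPM in marrow and 5.78 CPM in blood, 27.0-fold higher in marrow (16.0 to 49.6), with 5.34 CPM in adipose cells. SPP1 (osteopontin), a bone matrix phosphoprotein that macrophages also secrete, was at 1129 CPM in marrow, 102 CPM in blood and 66.4 CPM in adipose cells, an 11.0-fold difference (9.72 to 12.6). BMP2, an osteogenic ligand, was at 260, 20.6 and 4.93 CPM, 12.6-fold higher in marrow (9.51 to 17.0). For ENPP1, SPP1 and BMP2 the marrow cells thus stood alone at a high level, with blood and adipose cells both low.

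Because macrophages make SPP1, its background was examined. The cells removed by the macrophage rule held 3743 CPM of SPP1 in marrow and 2505 CPM in blood, and the free RNA of barcodes with 10 to 100 UMIs held 2377 and 308 CPM. Macrophage markers outside the rule were found in the low-cycling cells at no less than 0.685% of their free-RNA level in marrow (SPI1, the lowest of 12) and 0.540% in blood (C1QA, the lowest of 10). The same shares of the free SPP1 amount to 16.3 CPM in marrow and 1.66 CPM in blood, and the median marker's shares, 1.41% and 3.16%, to 33.5 and 9.73 CPM. These amounts stand beside 1129 CPM of SPP1 in the marrow cells and 102 CPM in the blood cells. The lowest markers rest on 3 UMIs of SPI1 in marrow and 1 UMI of C1QA in blood, in cells already filtered on other macrophage genes. The part of free or macrophage RNA in the SPP1 levels was not tested. At 4000 UMIs, 88.1% of marrow and 23.1% of blood low-cycling cells had an SPP1 UMI, and at full depth 95.8% and 52.3%. SPP1 was in 87.5% and 98.6% of the macrophage cells defined in the next paragraph, which therefore give no background for it.

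Shares of cells show whether a summed level was carried by many cells or few, and for a background they are set beside cells with at least 1% of their UMIs in macrophage markers (526 in marrow with a median of 6032.5 UMIs and 70 in blood with 9796), thinned alike. BMP2 had a UMI in 49.8% of marrow cells (47.4 to 52.3) and 7.59% of blood cells (5.61 to 10.0), 66.4% and 31.4% at full depth, and in 1.90% and 0% of the macrophage cells. Shares for ENPP1 were 36.7% and 2.31%, 53.5% and 13.4% at full depth. The macrophage cells had an ENPP1 UMI in 8.37% and 47.1%, so in blood they give no background for it. The part of their RNA in the low blood level of ENPP1 was not tested. UNC5B, a receptor of netrins, had a UMI in 44.5% of marrow and 3.47% of blood cells (64.5% and 14.0% at full depth; macrophage cells 2.09% and 0%). NES, the intermediate filament protein nestin, had one in 76.2% and 18.8% (89.3% and 49.7%; macrophage cells 3.8% and 1.43%). In the thinned marrow cells, the shares with a UMI of these genes thus ran from 36.7% for ENPP1 to 76.2% for NES. The 10% of marrow cells with the most UMIs of a gene held 50.1% of ENPP1, 45.5% of BMP2 and 38.6% of UNC5B. For SPP1 and NES such cells held 37.5% and 32.4%. How evenly the UMIs were spread over the cells was not tested.

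Bone lineage genes were higher in marrow as a list. Of 12 measured members, 10 had a ratio above 1, with a median log2 ratio of 2.94 (3.08 in the other cells), where genes at 0 enter against 3 counts. Of the 7 members that reached 50 CPM, 4 were apart, all higher in marrow: DLX5, SPP1, ENPP1 and OMD. Over all genes at 50 CPM or more, 10.2% were apart. DLX5, a homeobox activator of the osteoblast programme, was at 83.5 CPM in marrow and 0.825 CPM (2 UMIs) in blood, a ratio of 101 (27.9 to 838). OMD (osteomodulin), a small proteoglycan of bone matrix, was at 159 and 29.7 CPM. Below the call minimum, SP7 (osterix), a transcription factor needed for osteoblast formation, was at 36.8 and 2.48 CPM, and IBSP, bone sialoprotein, had 108 UMIs in marrow and 0 in blood. RUNX2, the early osteoblast factor, was nearer, at 67.8 and 41.7 CPM, and SPARC (osteonectin) was higher in blood, at 2314 and 3856 CPM. Through SPARC the summed list was level, 4160 CPM in marrow and 4156 CPM in blood. ALPL (alkaline phosphatase) and BGLAP (osteocalcin) were all but undetected, at 0.452 and 0.603 CPM in marrow, with 0 UMIs of either in blood. Adipogenic genes (6 measured) had a median log2 ratio of -0.52 and 1 call, CEBPD, an early adipogenic factor, at 73.1 and 297 CPM. Of the cartilage and tendon list only 3 members were measured and none reached 50 CPM.

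BMP and TGF-beta genes differed in both directions. Of 24 measured members, 13 reached 50 CPM, of which 4 were higher in marrow and 3 in blood (median log2 ratio -0.26). Over all genes at 50 CPM or more, 4.64% were higher in marrow and 5.56% in blood. The ligands that were apart were all higher in marrow: BMP2, BMP4 at 57.1 and 19.4 CPM (2.95-fold, 2.17 to 4.08) and TGFB1 at 102 and 42.9 CPM (2.37-fold, 1.93 to 2.94). The ligand TGFB3, below the call minimum, ran the other way at 4.52 and 11.96 CPM (2.65-fold, 1.53 to 4.56). No receptor was apart: BMPR2 was at 83.5 and 82.9 CPM, BMPR1A at 17.0 and 28.9 CPM and TGFBR2 at 7.84 and 16.1 CPM (2.05-fold, 1.32 to 3.17), BMPR1A and TGFBR2 lying below the call minimum. The antagonists ran in both directions, without a split by kind. GREM1, which binds BMPs, was at 104 CPM in marrow and 4.95 CPM in blood (20.9-fold, 11.9 to 40.7). FST, which binds activins, was at 11.9 and 107 CPM (9.01-fold higher in blood, 6.98 to 11.7), with 183 CPM in adipose cells. The BMP antagonist CHRDL1, below the call minimum, was at 0.151 and 14.0 CPM (1 and 34 UMIs). The follistatin-like FSTL3 was at 95.8 and 67.2 CPM and was not apart. The BMP target genes did not share a direction: ID1 was at 994 and 837 CPM (1.19-fold, 1.13 to 1.25, and 1.85-fold in the other cells), ID2 at 232 and 445 CPM, and ID3, which was apart, at 181 and 472 CPM. SMAD7, an inhibitory SMAD induced by TGF-beta, was at 61.8 and 33.0 CPM.

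Wnt antagonists were far apart between the cultures, in both directions. SFRP2 was at 323 CPM in blood, 218 CPM in adipose cells and 0.603 CPM (4 UMIs) in marrow, a ratio of 536 (208 to 1972). SFRP4 was at 746 CPM in blood, 23.4 CPM in marrow and 24.9 CPM in adipose cells, 31.9-fold higher in blood (27.1 to 37.9). DKK1, which blocks the Wnt co-receptors LRP5 and LRP6, ran the other way, with 76.3 CPM in marrow and 0.413 CPM (1 UMI) in blood, a ratio of 185 (33.0 to 7315). SFRP1, below the call minimum, also ran towards marrow, at 14.0 CPM (93 UMIs) against 0.413 CPM (1 UMI) in blood (34.0-fold, 5.95 to 1356). DKK3 was at 18.8 and 14.9 CPM. Of the antagonists that were apart, SFRP2 and SFRP4 were thus higher in blood and DKK1 in marrow. Among ligands, WNT5B was at 103 and 33.8 CPM (3.06-fold higher in marrow, 2.43 to 3.89), the agonist RSPO3 at 18.2 and 0.825 CPM, and the receptor FZD1 at 32.2 and 26.8 CPM. Of the 12 measured Wnt genes 2 were higher in marrow and 2 in blood, with 5 at 50 CPM or more. Over all such genes these shares were 4.64% and 5.56%.

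Among the largest blood-high genes were a peptide hormone, a cytokine receptor and matrix proteins. SST, the peptide hormone somatostatin, was at 307 CPM in blood, 3.90 CPM in adipose cells and 0.603 CPM (4 UMIs) in marrow, a ratio of 509 (198 to 1874). IL1RL1 (ST2), the receptor of interleukin 33, was at 229 CPM in blood, 3.47 CPM in marrow and 746 CPM in adipose cells, 66.2-fold higher in blood than in marrow (43.7 to 105). CD248 (endosialin), a stromal and pericyte surface glycoprotein, was at 124, 2.41 and 78.5 CPM in the same order, 51.3-fold higher in blood (31.1 to 91.0). These genes did not share an adipose level: SST and CCN5 (118 CPM in blood, 0.603 in marrow, 1.23 in adipose cells) were high in blood cells only, while SFRP2, IL1RL1, CD248, LRRN4CL (133, 7.08 and 594 CPM) and the proteoglycan VCAN (168, 10.4 and 139 CPM) were low in marrow cells only.

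SST was in fewer blood cells than SFRP4, SFRP2, IL1RL1 and CD248. Other blood-high genes were in a minority not far from its 121 of 606 cells: FST in 149, CCN5 in 164, LRRN4CL in 166 and TGFBI in 168. SST had a UMI in 19.97% of blood cells (16.9 to 23.4), 33.5% at full depth, with up to 45 UMIs in a cell. The 10% of cells with the most held 87.4% of the SST UMIs. For SFRP4 these values were 68.3% of cells (64.4 to 72.0), 87.1% at full depth, and 40.4% of UMIs in the top 10%; for SFRP2 they were 35.6%, 58.9% and 62.2%. IL1RL1 had a UMI in 44.9% of blood cells (79.7% at full depth) and CD248 in 35.5% (76.1%). In marrow the shares were 0.181% for SST, 0.121% for SFRP2, 7.05% for SFRP4, 1.33% for IL1RL1 and 0.964% for CD248, and at full depth 0.241%, 0.241%, 13.1%, 2.41% and 2.65%. SST was thus held by a minority of the blood cells and SFRP4 by most. The blood macrophage cells had a UMI of these genes in 1.43%, 2.86%, 10.0%, 1.43% and 0%, and the marrow macrophage cells in 0%, 0%, 0.190%, 0% and 0%.

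Matrix genes lay towards blood, with median log2 ratios of -0.60 for collagens, -1.22 for basement membrane, -0.80 for elastic fibres, -0.75 for adhesive glycoproteins and -0.30 for small leucine-rich proteoglycans. The calls in these lists stand beside 4.64% of all genes at 50 CPM or more higher in marrow and 5.56% in blood. Of 11 collagens at 50 CPM or more, 3 were apart towards blood, COL3A1 at 574 and 1844 CPM (3.21-fold, 3.08 to 3.35), COL6A1 at 233 and 528 CPM and COL14A1 at 25.2 and 134 CPM, and 1 towards marrow, COL8A1 at 176 and 68.9 CPM. The list of 8 measured basement membrane genes had no member with a ratio above 1. Of the 6 at 50 CPM or more, 5 were apart: LAMA4, a laminin chain, at 25.5 and 179 CPM (7.01-fold, 5.86 to 8.43), TINAGL1 at 17.6 and 113 CPM, and LAMB1, NID1 and NID2, at 2.22-fold to 3.21-fold. Of the small leucine-rich proteoglycans, FMOD (155 and 430 CPM) and ASPN (15.8 and 75.9 CPM) were higher in blood, against OMD in marrow, and DCN (619 and 772 CPM) and LUM (605 and 491 CPM) were not apart. Among 8 elastic fibre genes at 50 CPM or more there were 3 calls towards blood, FBLN2, EFEMP2 and MFAP5, and 1 towards marrow, LTBP1. MFAP5, a microfibril protein, was at 61.5 CPM in blood with 0 UMIs in marrow, at least 109-fold higher in blood by the lower limit of the exact interval (136-fold against a floor of 3 UMIs in the marrow library). Among adhesive glycoproteins VCAN, THBS1 (285 and 642 CPM) and TGFBI (13.3 and 104 CPM) were higher in blood, and POSTN, an osteoblast and periosteum protein, was higher in marrow at 59.5 and 8.66 CPM, as was THBS2. FN1 was level at 977 and 999 CPM.

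Most of the matrix enzymes that were apart were higher in blood too. The collagen crosslinkers LOX (124 and 314 CPM) and LOXL2 (96.9 and 213 CPM) and the procollagen enhancer PCOLCE (48.8 and 120 CPM) were higher in blood, as were the gelatinase MMP2 (824 and 1901 CPM, 2.31-fold) and TIMP3, an inhibitor of metalloproteases. The serine protease HTRA3 was at 7.23 and 218 CPM (30.2-fold, 22.4 to 41.4). In the plasminogen system, the receptor PLAUR (465 and 72.2 CPM, 6.44-fold) and the inhibitor TFPI2 (1567 and 322 CPM, 4.87-fold) were higher in marrow, while the activator PLAT (8.89 and 74.3 CPM) and the inhibitor SERPINE2 (124 and 677 CPM) were higher in blood. The activator PLAU was at 68.3 and 76.3 CPM and was not apart. The removed cells also express PLAUR: 49.8% and 55.7% of macrophage cells had a UMI, and the median free-RNA share of it amounts to 5.53 CPM in marrow and 2.84 CPM in blood. That share comes from markers in cells already filtered on other macrophage genes. The part of free or macrophage RNA in the PLAUR levels was not tested.

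Contractile genes were on the blood side in 16 of 17 measured members, with a median log2 ratio of -0.72 (-0.64 in the other cells). Of 15 members at 50 CPM or more, 5 were higher in blood and 1 in marrow (5.56% and 4.64% over all such genes). Apart were ACTA2, smooth muscle actin, at 167 and 468 CPM (2.81-fold, 2.59 to 3.06), TAGLN at 29.4 and 117 CPM, CNN1 at 9.80 and 51.6 CPM, MYL9 at 92.4 and 260 CPM and ACTG2 at 1.36 and 93.2 CPM. The exception was SORBS2, a scaffold protein of actin filaments, at 71.3 CPM in marrow and 0.413 CPM (1 UMI) in blood, a ratio of 173 (30.9 to 6839), and its marrow level in the other cells was 30.6 CPM. Of the CCN family and YAP-linked genes, CCN1 (469 and 550 CPM) and CCN2 (1249 and 1463 CPM) were not apart, whereas CCN5, CRIM1 (32.7 and 161 CPM) and ANKRD1 (0.603 and 65.6 CPM, 4 UMIs in marrow) were higher in blood. Mural markers summed to 54.6 CPM in marrow and 29.7 CPM in blood, of which CSPG4, a proteoglycan, made up 53.5 and 28.9 CPM, while RGS5, ABCC9, MCAM, MYH11 and DES had 0 UMIs in both.

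The insulin-like growth factor binding proteins differed one by one. IGFBP3 was at 91.6 CPM in marrow and 5.78 CPM in blood, 15.9-fold higher in marrow (9.38 to 29.2). In blood, IGFBP4 (128 and 412 CPM), IGFBP5 (27.1 and 177 CPM) and IGFBP6 (254 and 1388 CPM, 5.47-fold, 5.16 to 5.80) were higher. IGFBP2 was at 13.4 and 10.3 CPM and IGF2R, the clearance receptor of IGF2, at 51.8 and 99.4 CPM. Of the other growth factors, PDGFA was at 68.9 CPM in marrow and 4.54 CPM in blood (15.2-fold, 8.402 to 30.6), and its receptor PDGFRA at 38.1 and 122.9 CPM. Ligand and receptor were thus high in different cultures. FGF5 (67.96 and 26.8 CPM) was higher in marrow and PTN, pleiotrophin, in blood (68.7 and 452 CPM), while FGF7 (517 and 461 CPM), VEGFA (241 and 144 CPM) and CSF1 (519 and 317 CPM) were not apart.

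Chemokines and inflammatory genes lay towards blood, with 1 of 9 and 2 of 12 measured members having a ratio above 1. Of 7 chemokine genes at 50 CPM or more, 5 were apart, all higher in blood: CXCL5 at 757 and 2399 CPM (3.17-fold, 3.05 to 3.29), CXCL8 at 20.6 and 89.1 CPM, CXCL2 at 21.4 and 81.7 CPM, GRO1 at 17.5 and 132 CPM, and CXCL12, which retains blood stem cells in marrow, at 63.9 and 149 CPM. CCL5 was at 30.0 and 15.7 CPM (1.91-fold higher in marrow, 1.35 to 2.78), below the call minimum. Reads of the closely related CXC genes may be shared between them. The macrophage cells expressed CXCL5 (a UMI in 72.4% and 97.1%) and CXCL8 (84.8% and 100%), and the part of their RNA in these levels was not tested. IL6, a cytokine that acts on blood and bone cells, was at 486 CPM in marrow, 111 CPM in blood and 8.63 CPM in adipose cells (4.38-fold higher in marrow than in blood, 3.86 to 4.97). In blood, LGALS3 (488 and 1992 CPM), IL18 (6.93 and 87.0 CPM) and NFKBIA (23.1 and 69.3 CPM) were higher beside IL1RL1. Class I antigen presentation genes gave 0 calls among the 8 of 12 measured members that reached 50 CPM, where 10.2% of all such genes were apart, with a median log2 ratio of -0.48. The interferon-induced genes gave 1 call among 3, IFIT1, at 45.1 and 120 CPM.

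Cholesterol synthesis genes were higher in marrow with no exception among those measured. All 18 had a ratio above 1 (median log2 ratio 1.35, and 1.13 in the other cells). All 7 that reached 50 CPM were apart, where 10.2% of all such genes were. HMGCS1, an early enzyme of the pathway, was at 175 CPM in marrow, 29.7 CPM in blood and 131 CPM in adipose cells (5.87-fold, 4.63 to 7.56). SQLE, which oxidises squalene, was at 58.2, 11.6 and 46.8 CPM. IDI1, FDPS, CYP51A1 and MSMO1 were apart by 2.04-fold to 4.25-fold. The list summed to 808 CPM in marrow, 286 CPM in blood and 702 CPM in adipose cells, so the blood cells were the low ones of the 3 cultures. SREBF2, the transcription factor of the pathway, was at 35.9 and 13.2 CPM.

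Nuclear genes of the respiratory chain showed a smaller shift in the same direction: 19 of 22 had a ratio above 1, with a median log2 ratio of 0.36. All 22 reached 50 CPM and 3 were apart, where 10.2% of all such genes were. These were NDUFA1 (237 and 108 CPM), NDUFB1 (348 and 158 CPM) and UQCRQ (508 and 219 CPM). The mitochondrially encoded genes were level, as given above. NDUFA4L2, a hypoxia-induced relative of a respiratory chain subunit, ran against the list at 9.49 CPM in marrow and 263 CPM in blood (27.7-fold, 21.3 to 36.5), with 15.8 CPM in adipose cells. Other glycolysis and hypoxia genes were close: 23 measured members had a median log2 ratio of -0.12. HK1 (228 and 113 CPM) was the only other call among the 17 at 50 CPM or more. In the integrated stress response, ATF5 (40.4 and 155 CPM) and ALDH1L2 (93.4 and 197 CPM) were higher in blood among 12 genes at 50 CPM or more. Immediate early genes, which respond to handling, gave 1 call each way among 10 genes at 50 CPM or more, IER3 at 802 and 294 CPM and DUSP1 at 92.4 and 276 CPM. The calls of these lists stand beside the same 10.2%.

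Of 10 transcription factors and regulators of embryonic patterning at 50 CPM or more, 7 were apart, in both directions (10.2% over all such genes). The median log2 ratio of the 24 measured was 0.13. IRX3, IRX5, BARX1, MEOX1 and the inhibitor MDFI were higher in marrow, with IRX3 at 221 and 23.1 CPM (9.56-fold, 7.32 to 12.7) and BARX1 at 81.8 and 6.19 CPM (13.2-fold, 7.95 to 23.8). MEOX1, at 91.0 and 37.1 CPM, was 2.45-fold higher (1.96 to 3.09) but 1.29-fold in the other cells. EMX2 (4.52 and 57.8 CPM) and NR2F1 (7.99 and 82.9 CPM) were higher in blood. PRRX1, a limb and skeletal mesenchyme factor, was at 525 and 762 CPM and TWIST1 at 161 and 128 CPM, and neither was apart. HAND2 had 19.4 CPM in marrow and 0 UMIs in blood.

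HOX genes, which record position along the body axis, had close sums in the HOXA, HOXC and HOXD clusters and differed in the HOXB cluster. HOXA genes summed to 131 CPM in marrow and 118 CPM in blood, HOXC genes to 63.7 and 56.1 CPM and HOXD genes to 13.0 and 9.08 CPM. The 8 HOXB genes summed to 5.88 CPM in marrow, where 6 of them had 0 UMIs, to 99.8 CPM in blood and to 153 CPM in adipose cells. HOXB7 carried most of it, with 5.73 and 57.8 CPM in marrow and blood (10.1-fold, 7.003 to 14.8). The other 7 HOXB genes together had 1 UMI among the thinned marrow cells and 102 among the fewer thinned blood cells, and 3 against 636 at full depth. HOXB7 was the only HOX gene of 13 measured that was apart, since HOXA9 alone of the others reached 50 CPM (57.3 and 44.6 CPM).

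Genes of axon guidance and neural cells had a median log2 ratio of 1.73 over 14 measured members, 9 of them above 1. NES was at 512 CPM in marrow, 60.6 CPM in blood and 189 CPM in adipose cells (8.44-fold, 7.16 to 10.0), UNC5B at 167, 9.08 and 8.83 CPM (18.3-fold, 12.1 to 29.4) and BASP1 at 113, 31.4 and 84.4 CPM. The netrins themselves differed: NTN1 was at 33.8 and 9.90 CPM in marrow and blood, and NTN4 at 32.5 and 133 CPM, higher in blood. Glial markers were low in both cultures, at a sum of 22.5 and 10.3 CPM.

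The calls in the remaining lists stand beside the 10.2% of all genes at 50 CPM or more that were apart. Of 21 measured genes of cell cycle arrest and senescence (median log2 ratio -0.09), 9 reached 50 CPM and 2 were apart, both higher in blood. TXNIP, an inhibitor of thioredoxin, was 1 of these, at 26.8 and 93.6 CPM. The arrest gene CDKN1A was at 173 and 135 CPM and GADD45A at 169 and 180 CPM. The 14 surface genes at 50 CPM or more gave 3 calls towards blood, ENG (34.4 and 75.1 CPM), CD248 and PDGFRA. They gave 1 towards marrow, the glypican GPC1 (372 and 153 CPM). Among 6 integrins at 50 CPM or more, ITGA1 was apart, at 31.3 and 125 CPM. Lysosomal genes gave 1 call among 13 such genes, NPC2, a carrier of cholesterol out of lysosomes, at 427 and 203 CPM, and oxidative stress genes 1 among 11, TXNRD1, at 248 and 531 CPM. Of 7 measured genes of retinoid and steroid handling, 3 reached 50 CPM and none of these was apart (10.2% over all such genes), while the median log2 ratio of the 7 was -0.89.

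**Figure D2:**
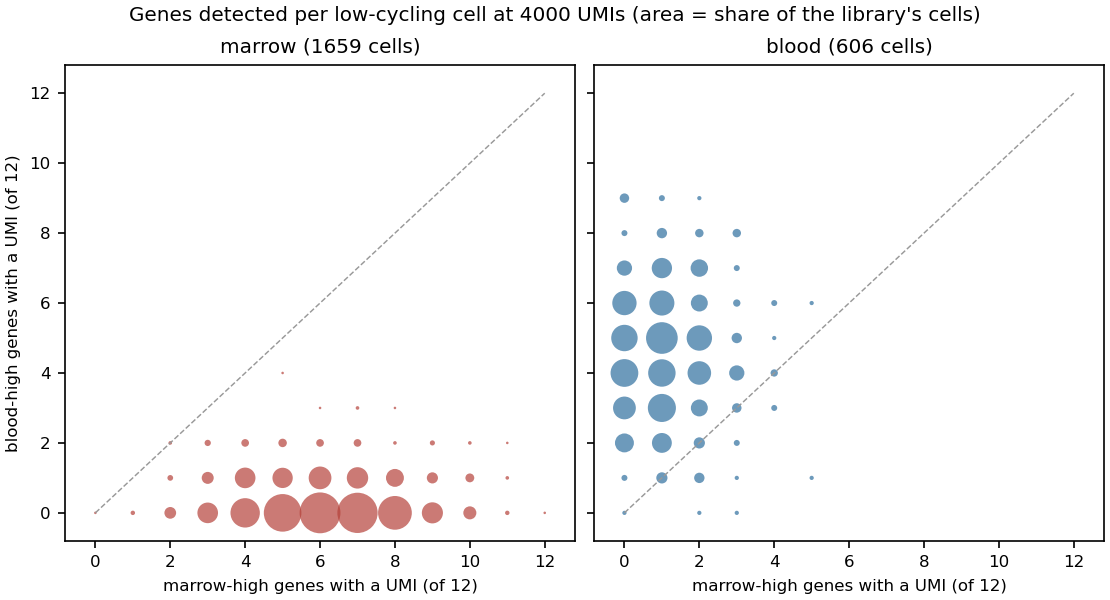
For each low-cycling cell thinned to 4000 UMIs, the number of the 12 largest marrow-high genes (horizontal) and of the 12 largest blood-high genes (vertical) with a UMI; the area of a circle is the share of the library's cells. Marrow cells lie along the horizontal axis, with a median of 6 marrow-high and 0 blood-high genes, and blood cells along the vertical axis, with 1 and 5.

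Cell by cell, the cultures hardly overlapped on these genes, which had been chosen for their distance. Of 1659 marrow cells, 1656 (99.8%) had a UMI of more marrow-high than blood-high genes, and 1213 (73.1%) had none of the blood-high genes. Among 606 blood cells, 569 (93.9%) had more blood-high genes, 23 had equally many and 14 had more marrow-high genes. Within blood, the genes were not carried evenly by the same cells. CCN5 had a UMI in 33.1% of the cells with SFRP4 and 14.1% of those without, and SST in 23.4% and 12.5%. CD248 had one in 24.5% of cells with SFRP2 and 41.5% of those without, LRRN4CL in 18.5% and 32.3%, and TGFBI in 38.9% and 21.5%. In marrow, ENPP1 had a UMI in 41.6% of cells with BMP2 and 31.9% of those without, and GREM1 in 31.3% of cells with NES and 20.5% of those without. These co-detections were named after their values were seen and describe cells that share a library and a depth.

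**Figure D3:**
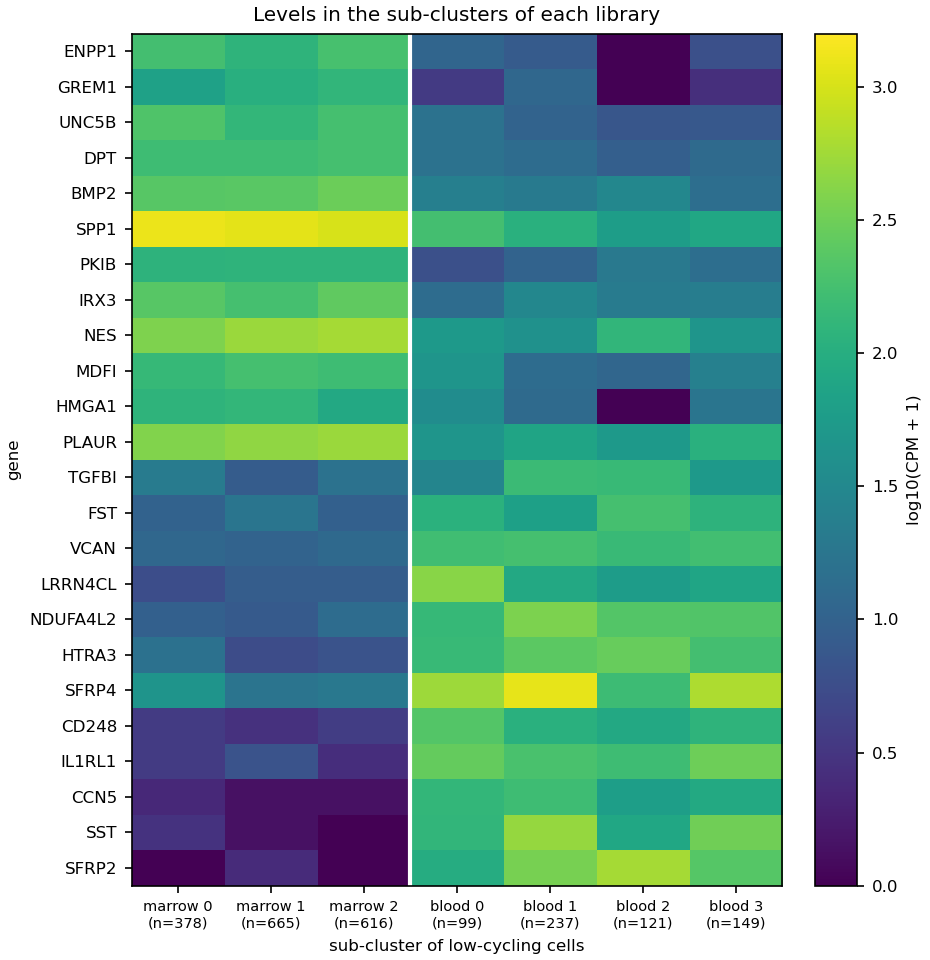
Levels, as log10(CPM + 1), of the 24 genes in the sub-clusters found within each library alone (columns, with their cell numbers; the white line separates marrow from blood). The genes were chosen for their distance between the libraries; SFRP4, SFRP2, SST and LRRN4CL varied among the blood sub-clusters.

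Clustering of each library alone split the marrow cells into 3 and the blood cells into 4 sub-clusters, which stay numbered. Marrow sub-cluster 1 (665 cells, 40.1%) was led by ASPM, CCNA2, PIMREG, KNL1 and DLGAP5, all genes of cell division, and its proliferation genes summed to 6611 CPM. Blood sub-cluster 3 (149 cells, 24.6%), led by CENPF, RRM2, CENPE, NUF2 and H2BC15, had 4482 CPM. Against the label, both hold cells with RNA of division genes. Their median scores on the 8 selection genes, 0.0975 and 0.0514, were the highest among the sub-clusters of their library. Marrow sub-cluster 0 (378 cells, 22.8%) was led by CLU, SERPINF1, SAT1 and TMEM119 and had the lowest proliferation sum of the marrow, 2173 CPM, and sub-cluster 2 (616 cells, 37.1%) by SUCO, OMD and ANGPTL2. SPP1 was at 1263, 1161 and 1013 CPM in marrow sub-clusters 0 to 2 and at 177, 107, 59.9 and 80.5 CPM in blood sub-clusters 0 to 3. ENPP1 was at 175, 118 and 185 CPM in the marrow sub-clusters, and OMD at 136, 120 and 214 CPM.

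The blood sub-clusters differed in SFRP4, SST, SFRP2 and LRRN4CL. Sub-cluster 1 (237 cells, 39.1%), led by an unnamed gene, CXCL8, THBS2, ANGPTL4 and ASPN, had the most SFRP4, 1205 CPM against 540, 157 and 631 CPM in sub-clusters 0, 2 and 3, and the most SST, 492 CPM against 126, 78.5 and 319 CPM. Sub-cluster 2 (121 cells, 19.97%), led by ANKRD1, CCN3, CNN1, THBS1 and LIPG, had the most SFRP2, 587 CPM against 93.4, 346 and 225 CPM, with THBS1 at 1570 CPM. Sub-cluster 0 (99 cells, 16.3%), led by MT1A, LRRN4CL, TIMP3 and FABP4, had LRRN4CL at 427 CPM against 57.9 to 84.4 CPM elsewhere and CD248 at 220 CPM. SFRP4 was thus lowest in the sub-cluster where SFRP2 was highest. The genes that lead a sub-cluster chose it, so their levels there are descriptions.

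**Figure D4:**
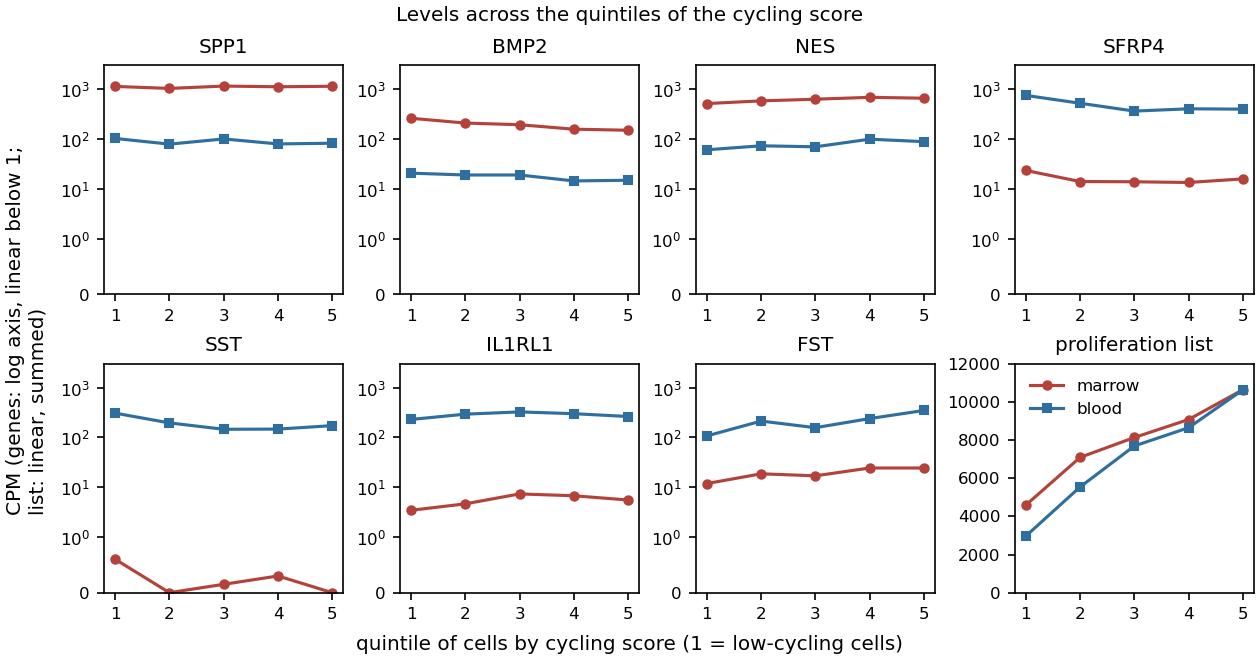
Levels of 7 genes and the summed proliferation list (CPM; genes on a log axis that is linear below 1, the list on a linear axis) in the quintiles of each library's non-macrophage cells by cycling score, from the low-cycling cells (1) to the highest scores (5), marrow in red and blood in blue. The 7 genes, whose side in the first quintile was fixed by their choice, keep it in the later quintiles. The proliferation list closes from 4590 and 2967 CPM in the first quintile to 10640 and 10632 CPM in the last.

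Across the quintiles of the cycling score the direction of the named differences was kept, with CENPF as the exception, and their size varied. Of the list genes and largest genes that were apart, 51 marrow-high genes were higher in marrow in all 5 quintiles and CENPF in 2. For 69 blood-high genes, marrow was lower in all 5. The first quintile is the set in which these genes were called apart, so their direction there was fixed by the choice. From the first to the last quintile, the genes higher in marrow numbered 141, 117, 95, 99 and 102, and those higher in blood 169, 142, 106, 120 and 123. The first counts are 4.64% and 5.56% of 3037 genes, and no such share is given for the later quintiles. BMP2 was at 260 CPM in the low-cycling marrow cells and 149 CPM in the highest-scoring quintile, and ENPP1 was at 156 and 96.7 CPM. SPP1 stayed between 1030 and 1147 CPM in all 5 marrow quintiles, and NES was higher among cycling cells (512 and 656 CPM). In blood, SFRP4 was at 746 CPM in the low-cycling cells and 396 CPM in the last quintile, SFRP2 at 323 and 212 CPM and SST at 307 and 172 CPM, while FST was at 107 and 347 CPM. In the other non-macrophage cells as a whole, the marrow-over-blood difference was 10.5-fold for BMP2, 13.0-fold for SPP1 and 11.6-fold for ENPP1, and the blood-over-marrow difference was 29.4-fold for SFRP4, 48.4-fold for IL1RL1 and 54.6-fold for CD248. CENPF was 3.01-fold higher in marrow among low-cycling cells and at 573 and 580 CPM in the others.

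The adipose library gives a further level for the genes that were apart. For the 141 marrow-high genes the low-cycling adipose cells (1217 of 6088, chosen alike) were nearer to marrow for 66 and nearer to blood for 75, and for the 169 blood-high genes they were nearer to marrow for 83 and to blood for 86. They lay between the other cultures for 84 and 115 genes, above both for 16 and 27, and below both for 41 and 27. These genes were chosen for their distance between marrow and blood. No share over all genes is set beside the counts, so they are a description only.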

How the data were processed

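The authors deposited counts, 1 whole number of UMIs for each gene in each barcode. Per the submitters' processing notes these come from Cell Ranger 6.1.1 and the build ARS-UCD1.2, but the file headers name version 4, and this was not settled. The files list 21861 genes, 17282 with a symbol, and hold all barcodes; the libraries total 106322567 (marrow), 98016815 (blood) and 99356868 UMIs (adipose). A RefSeq gene table of another assembly matched 0 of the identifiers without a symbol, so neither coordinates nor sequences are given.

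Cells were chosen as described above; no doublet caller was run, and removal before deposit is not stated in the labels. Cells were thinned to 4000 UMIs (seed 1) and summed. Each tissue has a single library, so nothing was tested. Ratios carry exact 95% conditional binomial intervals and shares exact Clopper-Pearson intervals, for counting error only. Against 0 UMIs a ratio uses a floor of 3 counts per library. A list's median is over its measured members, those with 10 CPM or more in marrow and blood together. The 36 lists had 812 entries, of which 776 were found, and lists with under 3 measured members have no median. Sub-clusters are Leiden clusters within a library (scanpy 1.11.5; 2000 variable genes, 20 principal components, 15 neighbours, resolution 0.5). Python 3.11.15, numpy 2.4.6 and scipy 1.17.1 were used; scaling by edgeR 4.0.16 TMM and DESeq2 1.42.0 size factors was an alternative only. The calculations were tested on simulated data.

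Genes named by rule are, for either direction, the 12 with a symbol and the highest ratio that reach 100 CPM, mitochondrial and ribosomal genes left out, and also list members that were apart, the 5 leading genes of each sub-cluster, the selection genes and 8 surface genes. Other list members (such as SP7, IBSP, RUNX2, SPARC, HAND2, NTN1 and the HOXB sums), LAPTM5 and S100A12 were named after their values were seen. A few list members count in their lists and are not reported here by name. The cells, lists and rules were chosen with earlier results of these data known.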

Additional observations from a re-analysis of the deposited data

Results flagged for a closer look

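CENPF, a kinetochore protein that peaks before mitosis, was flagged because its ratio between the cultures differed between low-cycling cells and the other cells, where it was nearly level. The log2 ratio of marrow over blood was 1.59 in the low-cycling cells (90.7 and 30.1 CPM) and -0.02 in the other non-macrophage cells (573 and 580 CPM). The difference between these ratios was not tested. Within marrow, CENPF was at 178 CPM in sub-cluster 1 against 11.2 and 45.5 CPM in sub-clusters 0 and 2, and within blood at 97.3 CPM in sub-cluster 3 against 4.22 to 12.6 CPM in the others.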

How the results depend on the processing

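The counts of genes apart were recomputed under 23 alternatives listed in advance and 1 added after seeing the data. They moved by more than 1.5 times only where the call rule itself changed: to 259 higher in marrow and 287 in blood with a minimum of 20 CPM, to 883 and 876 with no CPM minimum but 10 UMIs over the pair, to 88 and 105 with a minimum of 100 CPM, to 393 and 345 at 1.5-fold, and to 53 and 80 at 3-fold. Marrow-high genes made up 45.5% of the calls in the main comparison, 53.3% at 1.5-fold and 39.9% at 3-fold. Under the other alternatives (thinning depth and seed, limits on cells, scores, scaling, free RNA, sub-clusters) the counts ran from 120 to 190 and from 150 to 198. In none of the 24 alternatives did a main call change side, and in all of them the 12 largest genes of each direction stayed at least 2-fold apart. Where only the CPM minimum or the fold changed, every ratio was the same, so this outcome was fixed in advance. Changes of scaling moved all ratios by a common factor, and the largest genes had been chosen for their distance. Calls were lost, however: of the main 141 and 169, 111 and 148 were still called with the score taken on thinned cells, 115 and 146 in cells with no UMI of the selection genes, and at least 121 and 151 under each other alternative, with the main call rule applied throughout. Of 160 named genes, 39 had a ratio outside their main interval under each of the first 2 of these, and at most 32 under the others. The median log2 ratio of the proliferation list, 0.80, depended on how the cells were chosen: it was 0.30 with the score taken on thinned cells, 0.35 in cells with no UMI of the selection genes at 4000 UMIs and 0.17 without the sub-clusters led by cell cycle genes (994 marrow and 457 blood cells left). With cells scored on the other proliferation genes themselves, that list still summed to 4017 CPM in marrow and 2593 CPM in blood. Scoring thinned cells kept 1299 of the marrow and 369 of the blood cells. With deeper thinning, 435 marrow cells and no blood cell fell short and were dropped. No paired analysis was possible because each tissue has 1 library and its replicate number is only a name, and for the same reason no replicate could be left out. Depth limits the low genes: 0 UMIs in the thinned marrow cells leaves 3 UMIs of 6636000 possible, and in blood 3 of 2424000.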
